A study of Mus musculus with 6 samples.

Results

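The genes described here are the 8 constant genes of the immunoglobulin heavy chain (*Ighm*, *Ighd*, *Ighg3*, *Ighg1*, *Ighg2b*, *Ighg2c*, *Ighe* and *Igha*) together with *Jchain*. They were taken by gene symbol, 9 of the 27202 genes listed, with the levels of some of them in this comparison already known, and all 9 passed the filter on low values (average over the 6 libraries of 10 normalized counts or more, reads per gene scaled by the authors to make libraries comparable). The RNA-seq libraries came from the colon, with 3 of the *Nedd4l* fl/fl Villin Cre genotype and 3 from *Nedd4l* fl/fl littermates on a C57BL/6J background. Villin Cre mice lack *Nedd4l*, which encodes an E3 ubiquitin ligase, in intestinal epithelial cells (IECs), where the Villin promoter is active. Both groups carried the floxed alleles, were 8 to 10 weeks old, received 2% dextran sulfate sodium (DSS), which injures the colonic epithelium, in the drinking water and were sampled at day 7. No mice without DSS are among these libraries, so each value is a level in injured colon. The tissue is a mixture of epithelium, stroma and immune cells, and in such bulk samples a change in the number of cells of a type and a change in the RNA per cell cannot be told apart.

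A B cell starts by making IgM and IgD, whose constant genes lie closest to the rearranged variable segment. In class switching, the variable segment is joined to a constant gene further along the locus, so that the cell makes IgG, IgE or IgA with the same antigen specificity. IgA, made by plasma cells under the gut epithelium, is the main antibody of the intestine. J chain links IgA and IgM into polymers that the polymeric Ig receptor carries across the epithelium.

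The 8 heavy chain genes follow each other on the minus strand of chromosome 12 of GRCm38 in the order given above. *Ighm* spans 113418558 to 113422730 and *Igha*, at the far end, 113254830 to 113260236. *Ighg1* spans 113325240 to 113330523, 92.2 kb from the start of *Ighm*, and *Ighe* 113269260 to 113273248, 149 kb from it. *Jchain* lies apart, on chromosome 5 from 88519809 to 88527891, also on the minus strand. The IgG subclasses are the most alike of these genes, and the hinge, the flexible stretch between the antigen-binding arms and the stem of the antibody, is where they differ most visibly. The hinge exons of the 4 IgG genes, read from the secreted GENCODE transcripts on GRCm38 and written 5′ to 3′, are shown because the results below turn on telling *Ighg1* from its neighbors; capitals mark in-frame TGT and TGC triplets, which encode cysteine.
Ighg3 hinge exon: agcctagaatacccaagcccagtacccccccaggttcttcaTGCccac
Ighg1 hinge exon: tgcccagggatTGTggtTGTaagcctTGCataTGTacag
Ighg2b hinge exon: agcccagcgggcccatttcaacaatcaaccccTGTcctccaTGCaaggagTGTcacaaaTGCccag
Ighg2c hinge exon: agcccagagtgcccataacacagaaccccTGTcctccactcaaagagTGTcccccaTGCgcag
The *Ighg1* exon is the shortest, with 39 bases and 4 such triplets, and lies from 113329844 to 113329882. The exon of *Ighg3*, from 113360529 to 113360576, has 48 bases and 1 triplet. That of *Ighg2b*, from 113307261 to 113307326, has 66 bases and 4 triplets, and that of *Ighg2c*, from 113288263 to 113288325, has 63 bases and 3.

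Reads cannot be assigned to a subclass where they fall wholly within sequence that subclasses share. Over the coding part of the secreted form, *Ighg1* was identical to *Ighg2b* at 76.3%, to *Ighg2c* at 77.4% and to *Ighg3* at 75.3% of aligned bases, and it shared no run of 50 bases with any other heavy chain gene. In the whole annotated transcripts, 0.393% of the 50-base words of *Ighg1* also occurred in another gene, against 0% for *Ighe*, *Igha*, *Ighm* and *Ighd*. The closest pair was *Ighg2b* and *Ighg2c*, with 85.9% identity, and 5.49% of the words of *Ighg2c* occurred in *Ighg2b*. Their longest shared run is 78 bases of coding exon 3, chr12:113306869-113306946 in *Ighg2b* on the minus strand of GRCm38, and is shown because a read within it could come from either gene.
Ighg2b and Ighg2c shared run: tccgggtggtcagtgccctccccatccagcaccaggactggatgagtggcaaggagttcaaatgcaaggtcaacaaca
The length of the reads is not given in the sources used here. A count on a constant gene also cannot tell secreted from membrane transcripts, or a switched transcript from the germline transcript that precedes switching.

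*Nedd4l* itself was lower in each Villin Cre library than in each *Nedd4l* fl/fl library, at 476, 942 and 566 normalized counts in replicates 1, 2 and 3 against 1241, 1271 and 1266. Its log2 difference was −0.99 (SE 0.24, limma adjusted p = 0.225), and a 2-sided exact permutation test gave p = 0.1, as low as 3 libraries a group can reach. Without Villin Cre replicate 2 the log2 difference was −1.28 (limma adjusted p = 0.0131). With any other single library left out, the limma adjusted p was 0.226 to 0.512. Villin Cre replicate 2 resembled the *Nedd4l* fl/fl libraries over all 16246 genes tested (mean correlation 0.977) more than its own genotype (0.966). Its own-genotype mean includes Villin Cre replicate 1, the library least like the others (0.963 with its own genotype, 0.948 with the other). Villin Cre replicate 3 was at 0.975 and 0.973. The libraries had similar totals, from 15530711 to 16488596 normalized counts. The smallest value of a library, of which all its values are whole multiples, lay between 0.900 and 1.11. The number of reads behind that value is not stated, so no counting interval is given for a share.

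**Figure D1:**
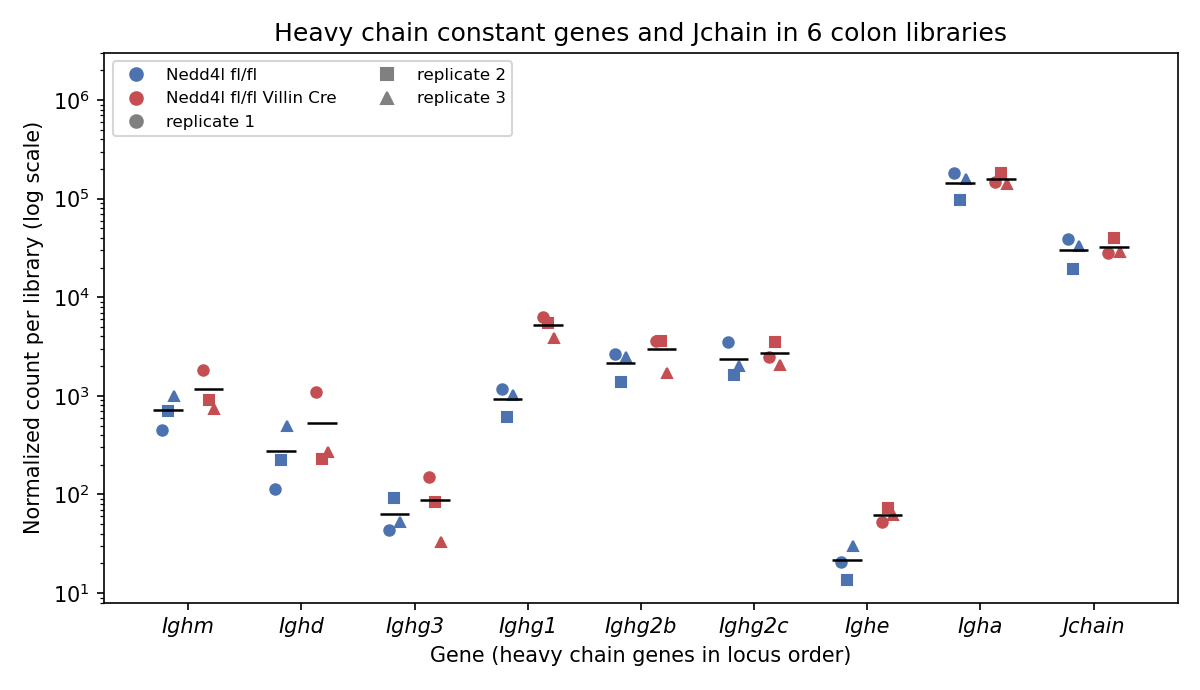
Normalized count (log scale) of each heavy chain constant gene, in locus order, and of *Jchain* in 3 *Nedd4l* fl/fl (blue) and 3 *Nedd4l* fl/fl Villin Cre (red) libraries; symbols mark the replicates and lines the group means. Only *Ighg1* and *Ighe* have every Villin Cre library above every *Nedd4l* fl/fl library; *Igha* is above all other members in each library.

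IgA dominated in all 6 libraries, and *Ighg1* and *Ighe*, the constant genes of IgG1 and IgE, were the members whose levels separated the genotypes. These members were chosen with the results of this comparison known, so their differences are described with no test. *Ighg1* stood at 6253, 5523 and 3903 normalized counts in Villin Cre replicates 1, 2 and 3 against 1180, 613 and 1019 in the *Nedd4l* fl/fl libraries in the same order. The lowest Villin Cre library was thus above the highest *Nedd4l* fl/fl library, and replicate 2, whose other genes resembled the *Nedd4l* fl/fl libraries, had the second highest level of all. The means were 5226 ± 1203 and 937 ± 293 (SD, n = 3 each), a ratio of 5.58 and a log2 difference of 2.50 (SE 0.29). *Ighe* was far rarer, at 52.7, 73.0 and 61.9 against 20.7, 13.5 and 30.0 normalized counts. Its groups did not overlap either, with means of 62.5 ± 10.1 and 21.4 ± 8.25 (SD, n = 3 each) and a log2 difference of 1.56 (SE 0.33). The *Ighe* values rest on 15 to 66 times the smallest value of a library, against 681 to 6523 times for *Ighg1*. Of the 9 members, these 2 lay wholly above the *Nedd4l* fl/fl libraries and 0 wholly below. Over the 16246 genes tested the corresponding shares were 10.5% above and 10.9% below, and since the members were chosen on this comparison nothing is read from the count. All 9 log2 differences were above 0, with a median of 0.45 against 0.0013 over all genes tested. With array weights, a limma option that gives libraries far from the fit less weight, the median of the members was 0.017, and *Ighg2b*, *Ighg2c*, *Ighg3* and *Jchain* were below 0, while *Ighg1* was at 2.17 and *Ighe* at 1.47.

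**Figure D2:**
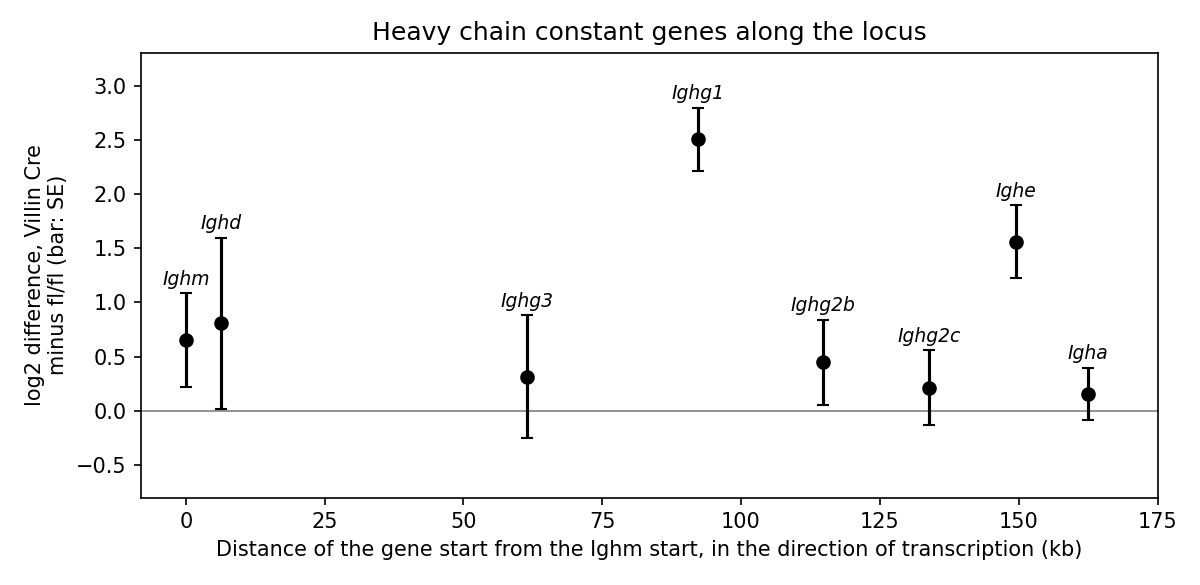
Log2 difference in level between Villin Cre and *Nedd4l* fl/fl mice (points, with bars of 1 SE from limma, 3 libraries a group) of the 8 heavy chain constant genes against the distance of their starts from that of *Ighm*. *Ighg1* at 2.50 and *Ighe* at 1.56 stand above *Ighg2b* and *Ighg2c*, which lie between them, at 0.45 and 0.22.

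The order along the locus did not order the differences. *Ighg2b* and *Ighg2c*, which lie between *Ighg1* and *Ighe*, overlapped between the genotypes, and so did *Ighg3*, which precedes *Ighg1*. *Ighg2b* was at 3634, 3600 and 1711 normalized counts in Villin Cre replicates 1, 2 and 3 and at 2630, 1370 and 2453 in *Nedd4l* fl/fl mice (log2 difference 0.45, SE 0.39). *Ighg2c*, which encodes the IgG2 subclass that C57BL/6 mice have in place of IgG2a, was at 2487, 3548 and 2045 against 3539, 1615 and 2019 (log2 difference 0.22, SE 0.34). *Ighg3*, the least abundant IgG gene, was at 150, 82.9 and 33.0 against 43.5, 92.7 and 52.9 (log2 difference 0.32, SE 0.57). For these 3 subclasses the range within each genotype was wider than the difference between the means.

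**Figure D3:**
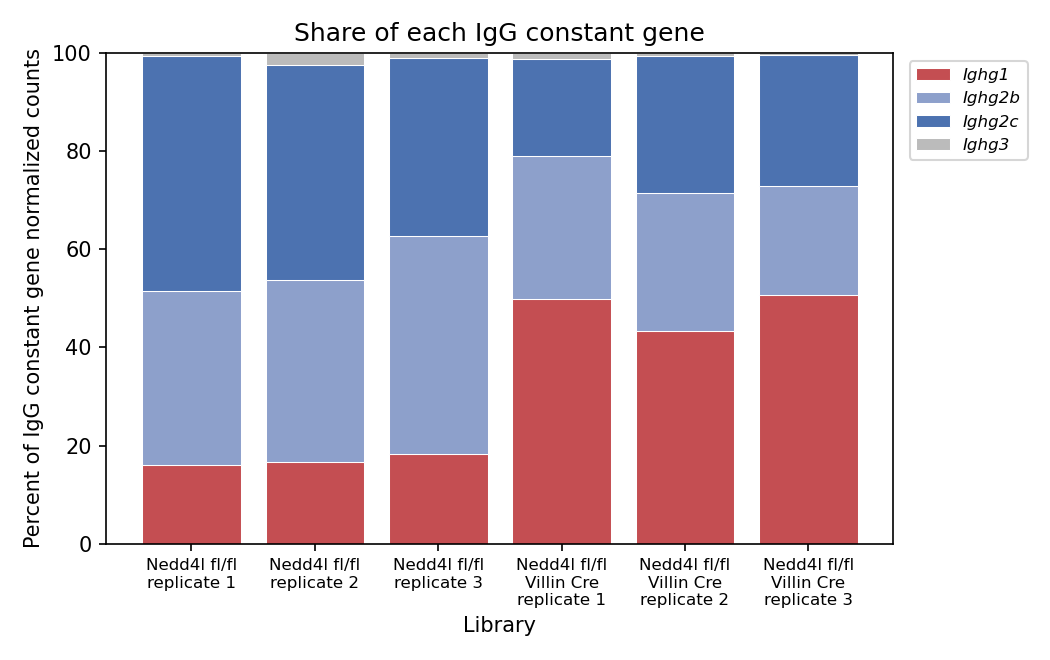
Share of each IgG constant gene in the summed normalized counts of *Ighg1*, *Ighg2b*, *Ighg2c* and *Ighg3*, one stacked bar per library. *Ighg1* (red) takes 43.3% to 50.7% in the 3 Villin Cre libraries and 16.0% to 18.4% in the 3 *Nedd4l* fl/fl libraries.

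The composition of IgG differed accordingly. *Ighg1* made up 49.9%, 43.3% and 50.7% of the summed IgG counts in the 3 Villin Cre libraries. In the *Nedd4l* fl/fl libraries its share was 16.0%, 16.6% and 18.4%. By counts it was the largest IgG gene in each Villin Cre library and ranked below *Ighg2b* and *Ighg2c* in each *Nedd4l* fl/fl library. The mean share was 48.0 ± 4.07% against 17.0 ± 1.26% (SD, n = 3 each). The share of *Ighg2c* was 24.8 ± 4.28% against 42.7 ± 5.81%, and that of *Ighg2b* 26.5 ± 3.70% against 39.0 ± 4.62%. Neither of these shares overlapped between the genotypes, although the levels of both genes did. They are parts of the same sum, so a higher *Ighg1* share leaves less for the other subclasses. Per kb of listed gene length the *Ighg2b* shares nearly met, at 23.78% in Villin Cre replicate 1 and 23.81% in *Nedd4l* fl/fl replicate 1. Counted per kb of listed gene length, the share of *Ighg1* was 39.1 ± 4.13% against 12.2 ± 1.42%, and *Ighg2c* was ahead of it in Villin Cre replicates 2 and 3, since *Ighg2c* is listed with 1326 bases and the other IgG genes with 2512 to 2678. The summed IgG counts were 12524, 12754 and 7693 against 7393, 3690 and 5545, so that the lowest Villin Cre library was only slightly above the highest *Nedd4l* fl/fl library.

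*Igha* was by far the most abundant member. It was at 147268, 181803 and 142074 normalized counts in Villin Cre replicates 1, 2 and 3 and at 183089, 96002 and 156378 in *Nedd4l* fl/fl mice (log2 difference 0.16, SE 0.24). The lowest and the highest library were both *Nedd4l* fl/fl, and the genotypes overlapped. *Jchain* followed the same order in *Nedd4l* fl/fl mice, at 38977, 19440 and 32804, and was at 28403, 39655 and 28546 in Villin Cre mice (log2 difference 0.12, SE 0.28). *Nedd4l* fl/fl replicate 2, the lowest library for *Igha*, *Jchain* and *Ighg1*, had the highest sum of 6 smooth muscle genes, 20465 against 4824 to 10588 in the other libraries; the part of this in its low levels was not tested. Without it the log2 differences of *Igha* and *Jchain* were −0.12 and −0.17, and that of *Ighg1* was 2.22.

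**Figure D4:**
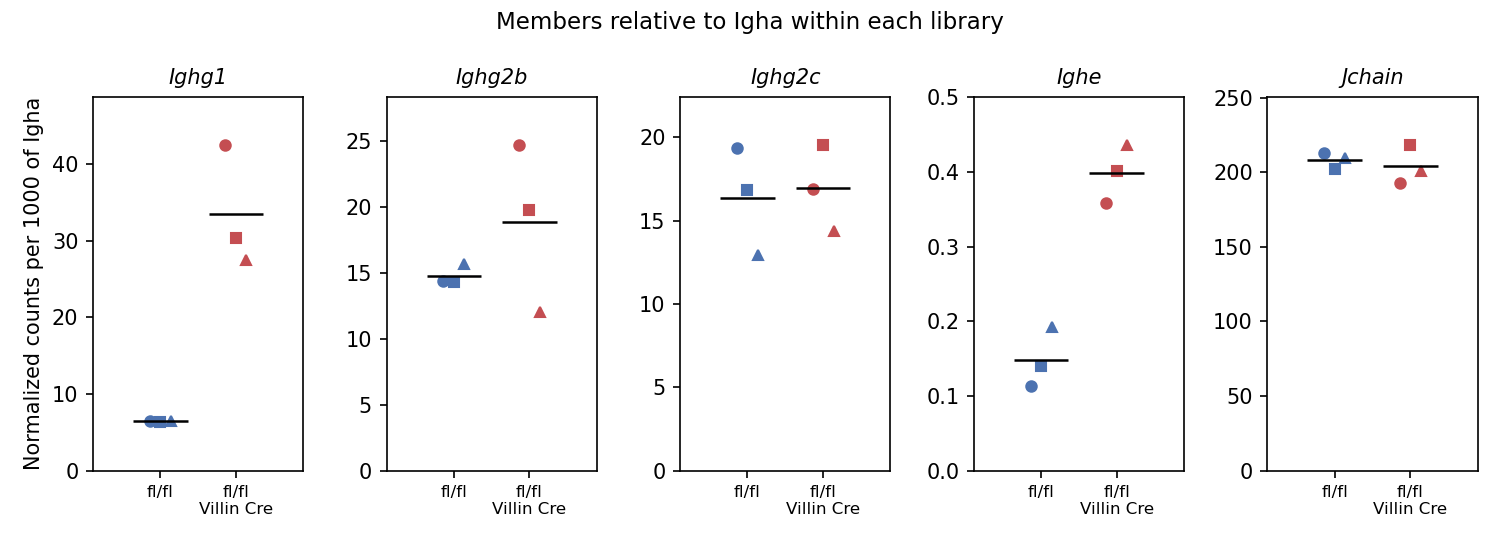
Normalized counts of 5 members per 1000 of *Igha* in the same library (blue, *Nedd4l* fl/fl; red, Villin Cre; circle, square and triangle are replicates 1, 2 and 3; lines are means; each axis starts at 0 and has its own range). *Ighg1* is at 6.38 to 6.52 in *Nedd4l* fl/fl mice and 27.5 to 42.5 in Villin Cre mice, while *Jchain* lies near 200 in both.

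Ratios within a library remove what the members share in that library. Per 1000 counts of *Igha*, *Jchain* had 193, 218 and 201 in Villin Cre mice and 213, 202.5 and 210 in *Nedd4l* fl/fl mice, although *Igha* itself ranged from 96002 to 183089. *Ighg1* had 6.45, 6.38 and 6.52 per 1000 in the *Nedd4l* fl/fl libraries, a spread of 0.069 (SD, n = 3). In Villin Cre mice it had 42.5, 30.4 and 27.5, so the ratio was both higher and more spread out, with a mean of 33.4 ± 7.95 (SD, n = 3) and 5.18 times that of *Nedd4l* fl/fl mice. *Ighe* had 0.358, 0.401 and 0.436 per 1000 against 0.113, 0.141 and 0.192. *Ighg2c* overlapped on this scale too, at 14.4 to 19.5 against 12.9 to 19.3, as did *Ighg2b*, with means of 18.8 ± 6.37 and 14.8 ± 0.793 (SD, n = 3 each). The rarer *Ighe* did not keep pace with *Ighg1*, with 8.43, 13.2 and 15.9 per 1000 counts of *Ighg1* in Villin Cre and 17.6, 22.0 and 29.4 in *Nedd4l* fl/fl mice. Among the 8 heavy chain genes *Igha* took 90.5%, 92.9% and 94.2% in Villin Cre mice and 95.8%, 95.4% and 95.7% in *Nedd4l* fl/fl mice. *Ighg1* accounted for 3.84%, 2.82% and 2.59% against 0.618%, 0.609% and 0.624%, a difference of 2.47 percentage points in the means. Both shares were without overlap, while the level of *Igha* overlapped. The shares are parts of the same sum, so a higher *Ighg1* share leaves less for *Igha*.

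Levels were also taken per kb of listed gene length, which compares the genes only as far as the listed lengths are alike in kind. *Ighg2c* is listed with 1326 bases and *Ighg1* with 2592, although their secreted coding parts have 1004 and 971. The place of *Ighg2c* among the IgG genes therefore depends on the annotation. In *Nedd4l* fl/fl mice the order of the means was *Igha*, *Jchain*, *Ighg2c*, *Ighg2b*, *Ighm*, *Ighg1*, *Ighd*, *Ighg3* and *Ighe*. *Ighg1* (236 to 455 normalized counts per kb) overlapped with *Ighm* above it and with *Ighd* below it, and *Ighg2b* overlapped with *Ighm*. *Ighg3* and *Ighe*, the lowest pair, also overlapped. In Villin Cre mice *Ighg1*, at 1506 to 2412 per kb, was beside *Ighg2c* at 1543 to 2676, and did not overlap with *Ighg2b*, which came next at 639 to 1357. By counts not divided by length, *Ighg1* in Villin Cre mice, at 3903 to 6253, was above *Ighg2c*, at 2045 to 3548. *Igha*, at 53251 to 68142 per kb, and *Jchain*, at 11284 to 15755, stood clear of each other and of the rest there, as they did in *Nedd4l* fl/fl mice.

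*Ighm* and *Ighd*, which mature B cells express together before switching, were highest in Villin Cre replicate 1. *Ighm* was at 1828, 913 and 741 normalized counts in Villin Cre replicates 1, 2 and 3 and at 452, 708 and 995 in *Nedd4l* fl/fl mice (log2 difference 0.65, SE 0.43). *Ighd* was at 1099, 231 and 268 against 115, 221 and 498 (log2 difference 0.81, SE 0.79). Both overlapped between the genotypes, and without Villin Cre replicate 1 the log2 differences were 0.27 and 0.095. The 14 B cell genes, such as *Ms4a1* and *Cd79a*, which encode B cell surface proteins, summed to 9437, 5030 and 4468 in Villin Cre mice and 3559, 5258 and 6641 in *Nedd4l* fl/fl mice. The library with the most B cell RNA therefore also had the most *Ighm* and *Ighd*, and *Nedd4l* fl/fl replicate 1 had the least of all 3. *Ighm* per count of the B cell sum was 0.194, 0.182 and 0.166 in Villin Cre and 0.127, 0.135 and 0.150 in *Nedd4l* fl/fl mice, without overlap, whereas *Ighd* on this scale overlapped. These ratios to the B cell sum were not planned beforehand and were not tested. The order of the libraries for *Ighg1* was a different one, since Villin Cre replicates 2 and 3 had B cell sums below those of *Nedd4l* fl/fl replicates 2 and 3.

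**Figure D5:**
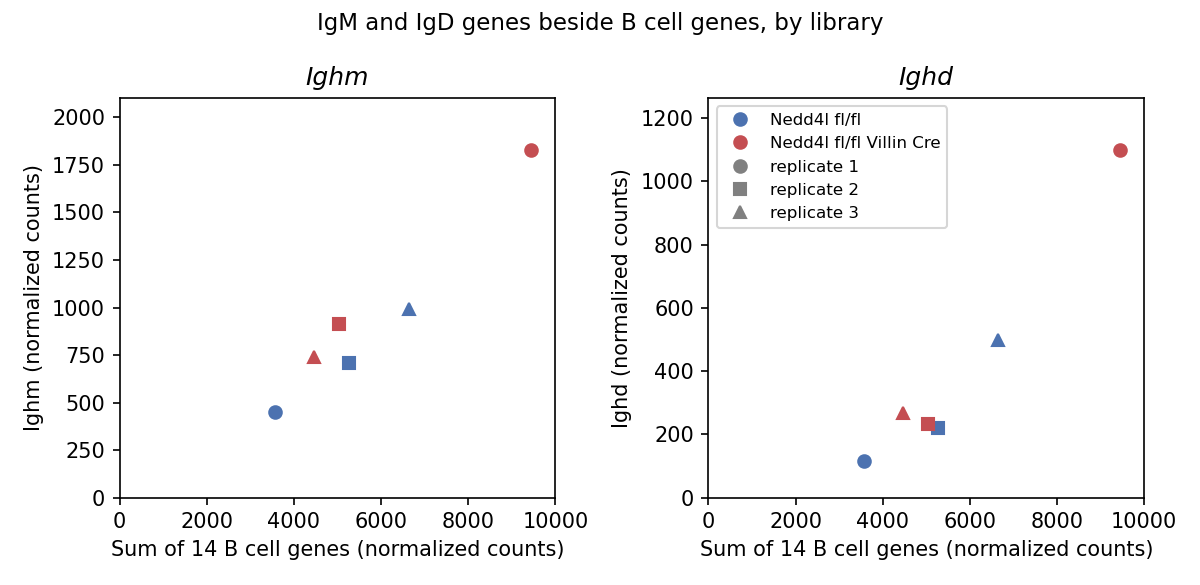
*Ighm* and *Ighd* (normalized counts, both axes linear) against the summed normalized counts of 14 B cell genes in the same 6 libraries (blue, *Nedd4l* fl/fl; red, Villin Cre). Villin Cre replicate 1 is at the top right of both panels, with a B cell sum of 9437, and *Nedd4l* fl/fl replicate 1 at the bottom left, with 3559.

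Markers of the other cells of the colon were present in each library, 9 epithelial genes summing to 183363 to 230064 normalized counts. The 6 fibroblast genes were *Col1a1*, *Col1a2*, *Col3a1*, *Pdgfra*, *Dcn* and *Lum*. They summed to 20966 to 42446 normalized counts in Villin Cre and 10564 to 18057 in *Nedd4l* fl/fl mice, without overlap. By gene, only the collagen genes *Col1a1*, *Col1a2* and *Col3a1* did not overlap. *Pdgfra*, *Dcn* and *Lum* overlapped, with *Lum* at 239 to 270 against 146 to 349. The 7 neutrophil genes summed to 2983 to 9239 against 2967 to 3233, a sum that *Ly6g* (2200 to 3136 in each library) dominated in all libraries but Villin Cre replicate 1, and *Mpo* was at 0 in 4 of the 6 libraries. *S100a9*, which encodes a granulocyte calcium-binding protein, was at 2680, 27.6 and 348 in Villin Cre mice and at 10.8 to 15.8 in *Nedd4l* fl/fl mice. *Cxcr2*, the neutrophil chemokine receptor gene, was at 181, 4.42 and 20.6 against 0 to 2.70, and *S100a8* at 2708, 31.0 and 417 against 12.8 to 38.7. *S100a9* and *Cxcr2* did not overlap between the genotypes and were highest in Villin Cre replicate 1. The other neutrophil genes overlapped, with *Csf3r* at 507, 76.3 and 153 against 43.2 to 88.9. *Retnlg* was at 672, 11.1 and 60.9 against 1.80 to 19.8, and *Ly6g* at 2200 to 2832 against 2829 to 3136. Sums of 8 T cell genes overlapped, at 662 to 816 against 638 to 898, as did those of 8 macrophage genes, at 5719 to 7447 against 4459 to 6999.8. Whether fibroblasts or neutrophils had a part in the *Ighg1* and *Ighe* levels was not tested.

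The partners of the heavy chains were compared over the whole table with limma, a linear model with moderated variances, and an adjusted p of 0.05. Of the 16246 genes tested 0% passed this threshold (smallest adjusted p 0.111), while 6.91% were higher and 7.08% lower at an unadjusted p under 0.05, and no count test was run. The lists below were written with earlier results of these data known, and 0 of their genes passed the threshold. The light chains pair with every heavy chain. Their 4 constant genes had log2 differences above 0, with 0 at an unadjusted p under 0.05 in either direction. *Igkc*, the kappa constant gene, was at 65788, 86152 and 69144 normalized counts in Villin Cre mice and 78876, 35723 and 71112 in *Nedd4l* fl/fl mice (log2 difference 0.32, SE 0.31, limma adjusted p = 0.659). Its log2 difference was −0.033 without *Nedd4l* fl/fl replicate 2, the lowest library for *Igkc* as for *Igha*. The lambda genes had log2 differences of 0.96 for *Iglc1*, 0.84 for *Iglc2* and 0.37 for *Iglc3* (limma adjusted p = 0.388, 0.528 and 0.544). Together they made up 9.46%, 10.9% and 9.02% of the light chain constant counts in Villin Cre and 6.66%, 6.14% and 7.62% in *Nedd4l* fl/fl mice, shares that did not overlap and were singled out after their values were seen.

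The plasma cell and antibody secretion list held 18 genes, all tested, with a median log2 difference of 0.069 and 0 at an unadjusted p under 0.05 in either direction. The smallest p were those of *Mzb1*, an endoplasmic reticulum protein that assists antibody assembly (log2 difference 0.37, SE 0.17, limma adjusted p = 0.379), *Pou2af1*, a coactivator of immunoglobulin genes (0.57, SE 0.28, adjusted p = 0.416), and *Ell2*, an elongation factor that favors the secreted heavy chain transcript (0.19, SE 0.10, adjusted p = 0.427). *Tnfrsf17*, which encodes the plasma cell survival receptor BCMA, was at 42.2, 99.5 and 54.7 normalized counts in Villin Cre and 53.3, 28.8 and 62.9 in *Nedd4l* fl/fl mice (limma adjusted p = 0.659). The sum of the list was 42435 to 45982 against 43904 to 44293, though epithelial cells also express several of its genes, such as *Xbp1* and *Sdc1*. The 14 B cell genes had a median log2 difference of 0.34, all above 0, with 0 at an unadjusted p under 0.05. *Cd72*, *Cr2* and *Bank1* had the smallest p, with log2 differences of 0.34, 0.65 and 0.52 (limma adjusted p = 0.531, 0.631 and 0.673). These rested on single libraries, with *Bank1* at −0.043 and *Cd72* at 0.15 without Villin Cre replicate 1, and *Cr2* at 0.049 without *Nedd4l* fl/fl replicate 1.

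Of the 14 genes of class switching and the germinal center, all tested, 0 were higher and 5 lower at an unadjusted p under 0.05, with a median log2 difference of −0.081. Among them were *Ung*, *Msh6*, *Exo1* and *Paxip1*, which act in DNA repair in all dividing cells. *Ung*, a glycosylase that removes uracil from DNA, was at 233, 232 and 225 normalized counts in Villin Cre and 370, 433 and 443 in *Nedd4l* fl/fl mice. These values did not overlap (log2 difference −0.85, SE 0.12, limma adjusted p = 0.116). The limma adjusted p was 0.0496 without Villin Cre replicate 2, and 0.0689 to 0.487 with any other single library left out. *Msh6* and *Paxip1* had log2 differences of −0.50 and −0.40 (limma adjusted p = 0.171 and 0.211).

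The signals that direct switching or keep B cells alive were often rare in this tissue. Of 16 such genes 8 passed the filter, 1 of them higher and 1 lower at an unadjusted p under 0.05. *Tgfb1*, the cytokine that directs switching to IgA, was at 622, 440 and 457 normalized counts in Villin Cre and 424, 294 and 394 in *Nedd4l* fl/fl mice (log2 difference 0.45, SE 0.18, limma adjusted p = 0.343). *Aldh1a1*, an enzyme of retinoic acid synthesis, had a log2 difference of −0.58 (SE 0.14, limma adjusted p = 0.211), and *Tnfsf13b*, which encodes the B cell survival factor BAFF, one of 0.34 (SE 0.17, limma adjusted p = 0.414). *Il4*, the cytokine that directs switching to IgG1 and IgE, did not reach the filter, at 7.67, 12.2 and 11.3 against 8.89, 10.8 and 5.99. *Il13*, its relative, was at 0, 8.84 and 4.13 against 5.93, 4.50 and 4.99. Both genes overlapped between the genotypes and were not tested. *Il21*, a cytokine of follicular helper T cells, was at 10.5, 6.63 and 6.19 against 0, 1.80 and 6.99, and *Il6*, which promotes plasma cell formation, at 15.3, 9.95 and 20.6 against 0, 1.80 and 2.00. *Il21* and *Il6* were also below the filter and were not tested.

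Of 13 genes that carry antibody or bind its constant part 11 were tested, with a median log2 difference of 0.42. At an unadjusted p under 0.05, 4 of them were higher (*Fcgr1*, *Fcgr3*, *Trim21* and *B2m*) and 0 lower. *Fcgr1*, the high-affinity IgG receptor of macrophages and monocytes, was at 161, 125 and 126 normalized counts in Villin Cre and 74.1, 56.7 and 68.9 in *Nedd4l* fl/fl mice (log2 difference 1.03, SE 0.20, limma adjusted p = 0.169). *Fcgr3*, a low-affinity IgG receptor, and *Trim21*, a cytosolic antibody receptor, had log2 differences of 0.81 and 0.42 (limma adjusted p = 0.276 and 0.284). None of these 3 overlapped between the genotypes. *Pigr*, the epithelial receptor that carries polymeric IgA into the lumen, was at 54157, 109153 and 100562 against 94126, 87755 and 113184 (log2 difference −0.22, SE 0.28, limma adjusted p = 0.739). Its lowest library was Villin Cre replicate 1, and without that library the log2 difference was 0.0996. The IgE receptor genes of mast cells were below the filter, with *Fcer1a* at 3.83, 16.6 and 7.22 against 0.988, 0 and 2.00, and *Ms4a2* at 0.959, 22.1 and 8.25 against 2.96, 1.80 and 0.999. Both were highest in Villin Cre replicate 2, as was *Ighe*, but a link of such low values with *Ighe* was not tested.

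Of 18 genes of lymphocyte homing 17 were tested, 1 higher and 1 lower at an unadjusted p under 0.05. *Cxcr4*, which guides plasma cells to CXCL12, was at 375, 341 and 230 normalized counts in Villin Cre and 123, 157 and 178 in *Nedd4l* fl/fl mice (log2 difference 1.03, SE 0.22, limma adjusted p = 0.192). *Ccl20*, an epithelial chemokine for B cells bearing CCR6, was at 63.3, 60.8 and 88.7 against 266, 158 and 154 (log2 difference −1.40, SE 0.27, limma adjusted p = 0.169). The groups did not overlap for either gene, nor for *Itgb7*, a subunit of the gut homing integrin (log2 difference 0.23, SE 0.12, limma adjusted p = 0.408). With array weights, where Villin Cre replicate 3 had a weight of 4.39 against 0.414 and 0.562 for replicates 1 and 2, *Ung*, *Msh6*, *Paxip1*, *Aldh1a1*, *Fcgr1* and *Ccl20* passed an adjusted p of 0.05.

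The genes outside the immunoglobulin loci whose log2 levels were most like a member's were sought among 11878 protein-coding genes averaging 50 normalized counts or more. Over the 6 libraries, *Igha* was followed most closely by *Adamdec1*, a protease gene of the intestinal mucosa (Pearson correlation 0.990), *Fads3*, *Adam19*, *Man1c1* and *Fcna* (0.974 to 0.985). *Adamdec1* was at 2730, 3175 and 2658 normalized counts in Villin Cre and 3370, 1806 and 2694 in *Nedd4l* fl/fl mice, with its lowest library at *Nedd4l* fl/fl replicate 2, as for *Igha*. The summed IgG genes were followed by *C9orf72*, *Dusp1*, *Ctsd*, *Glis2* and *Hpse* (0.986 to 0.991). *C9orf72* was at 388, 374 and 304 against 296, 211 and 240, a smaller ratio of means (1.43) than that of the IgG sum (1.98). These correlations were taken over libraries of both genotypes, and they are the highest of the 11878 compared. All genes of a library share its depth and tissue mixture, and the mixture differed between libraries, as in the smooth muscle sums (4824 to 20465).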

How the data were processed

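The authors deposited 1 table of normalized counts, a signal in which the read count of each gene was scaled by a factor particular to its library, for 3 libraries of each genotype. The tool that scaled them is not given in the sources used here. The submitters' processing notes name HISAT2 2.0.5 and featureCounts 1.5.0-p3, and the build hg18, a human one; 97.2% of the 27191 table genes found in GENCODE M21 have the same coordinates in that release (GRCm38), among them all 9 members. Strand and shared-read settings are not given in the sources used here. The authors' fold changes, p-values and group means in the table were not used. The table's values were whole multiples of 1 step per library (100% within 0.01).

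Values were transformed to log2(normalized count + 1), which understates changes of low genes, and 16246 genes with a mean of at least 10 were fitted with limma 3.58.1 (trend and robust) in R 4.3.3 over all 6 libraries, with Benjamini-Hochberg adjustment; the fit was tested on simulated data. The labels give no litter or batch, and whether each library is 1 mouse is not stated, so p-values measure only the spread between these libraries, which may be technical. Named were the members, the 3 genes with the smallest p in each list, *Pigr*, *Igkc*, *Tnfrsf17* and *Nedd4l*, and the 5 genes most correlated with *Igha* and with summed IgG; *Exo1*, *B2m*, the cytokine and IgE receptor genes below the filter and the marker genes were named after their values were seen. The members and lists were chosen with earlier results of these data known. Alternatives were other normalizations, pseudocount, filter, weights, a replicate block and leaving out each library. Figures were drawn with matplotlib 3.10.9. Some genes of the lists are not reported here.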

Additional observations from a re-analysis of the deposited data

How the results depend on the processing

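The count of genes past an adjusted p of 0.05 in limma was 0, and it was 30 with no filter on low values, 631 with array weights and from 0 to 122 when each library was left out in turn (24 without Villin Cre replicate 1, 122 without Villin Cre replicate 2). Of the genes in the lists beside the members, 0 were called, against 1 with no filter, 8 with array weights and 0 to 1 with a library left out. *Nedd4l* passed the threshold with array weights (log2 difference −1.09, adjusted p = 0.0212) and, over the leave-one-out fits, ranged from −1.28 to −0.79. The cause was not tested.

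The genes called were 70 higher and 52 lower without Villin Cre replicate 2, 2 higher and 22 lower without Villin Cre replicate 1, 7 higher and 23 lower with no filter, and 262 higher and 369 lower with array weights, a fit that gave Villin Cre replicate 3 a weight of 4.39 and the other libraries 0.414 to 1.34. The log2 difference of *Ighg1* ran from 2.17 with array weights to 2.70, and that of *Ighe* from 1.28 to 1.83. Leaving out a library moved the median of the 9 members between 0.25 and 0.89, the difference in the *Ighg1* share of heavy chains between 2.09 and 2.71 percentage points, and the difference in the members' share of all counts (0.12 percentage points) between −0.073 and 0.26. The sign of *Ighg3*, *Ighg2c*, *Igha*, *Jchain*, *Igkc*, *Pigr* and *Bank1* depended on which library was left out. With array weights the members' median was 0.017 and *Ighg2b* was at −0.14, and with quantile normalization *Igha* was at −0.081. With *Ighg2b* and *Ighg2c* left out, the difference in the *Ighg1* share of IgG was 5.65 percentage points, since only *Ighg3* then remained beside it.

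With the replicate number as a block 0 genes were called. Same-numbered libraries did not deviate together (correlations −0.090 to −0.029). With 3 libraries a group this cannot show whether the numbers pair litters or batches, which the labels do not give. The edgeR and DESeq2 fits planned on recovered reads were not run, since the reads behind a step are not stated.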
